A study of Homo sapiens with 23 samples.

Results

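The genes described here code 59 enzymes and enzyme subunits that modify tRNA nucleosides, other than THUMPD3 itself, its THUMP-domain relatives and the TRMT112 partners. They were taken from a list of gene symbols, and all 59 were found both among the 61806 genes counted in the first libraries and among the 42901 genes counted in the deep libraries. Their mRNA was measured by RNA-sequencing in A549, an established human lung carcinoma cell line, after knockdown of *THUMPD3*, which codes a guanosine methyltransferase of tRNA. The 17 first libraries hold an siRNA knockdown harvested on day 5 (siD3 #3, 3 libraries, against siControl, 2 libraries) and the inducible shRNA knockdowns shD3 #1 and shD3 #4 harvested on day 6 (3 libraries each, against 3 sh1Control and 3 sh4Control libraries). The 6 deep libraries hold shD3 #1 and sh1Control again, with 3 libraries per group and no harvest day in the labels. The labels give the genotype of all control libraries as WT and that of all others as THUMPD3 knockdown. In the study's methods the shRNAs were carried by lentivirus under a doxycycline-inducible promoter in puromycin-selected A549 cells, the replicates were biological, and controls were untreated samples. The labels do not say whether sh1Control and sh4Control carry an uninduced or a non-targeting shRNA, so the effects of doxycycline and of the shRNA cannot be told apart here.

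tRNAs carry more kinds of chemical modification than any other RNA. Modifications of the tRNA body (methylations, dihydrouridine and pseudouridine) mostly support folding and stability, and those of the anticodon loop, above all at the wobble nucleoside and at the purine 3′ of the anticodon, tune how codons are read. Most of the enzymes are encoded by housekeeping genes, several work as obligate pairs or complexes, and a subset modifies mitochondrial tRNAs.

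Total counts ranged from 9854294 to 22101059 per first library and from 27285889 to 59974740 per deep library, and mitochondrially encoded genes took 24.9% to 37.4% and 11.8% to 15.5% of them. Depth differed between groups. The knockdown had 27285889 to 35458367 counts against 51101905 to 59974740 in the deep libraries, and 9854294 to 18210828 against 17575988 to 20234810 in shD3 #1. It had 19117117 to 22101059 against 13535327 to 18141512 in siD3 #3, and 17603556 to 20682625 against 18096602 to 20368566 in shD3 #4. The part of depth in the results was not tested. *THUMPD3* fell in each knockdown, to 51.3% of sh1Control in shD3 #1, 31.4% of sh4Control in shD3 #4, 17.1% of siControl in siD3 #3 and 49.6% of sh1Control in the deep libraries, with no overlap between groups, although 20.3% of its exon length is shared with genes on the opposite strand. All 12 A549 markers were detected in every group, and their summed level was 11002 to 19249 cpm (counts scaled to a common library total) in siD3 #3 against 16993 to 18848 cpm in siControl. Summed markers of blood, endothelial cells and fibroblasts stayed at or under 11.2 cpm, with CD3E at 0 in every first library. The 5 fibroblast markers summed to more in each knockdown than in its control, at 10.7 to 11.2 against 3.61 to 4.46 cpm in shD3 #1, 6.86 to 8.70 against 3.48 to 3.83 cpm in shD3 #4, 4.03 to 5.57 against 2.37 to 3.18 cpm in siD3 #3 and 5.5 to 6.03 against 2.47 to 3.44 cpm in the deep libraries. The 3 endothelial markers summed to 0.885 to 1.45 against 0.148 to 0.220 cpm in siD3 #3, 0.870 to 1.42 against 0.316 to 0.497 cpm in shD3 #4 and 0.705 to 1.28 against 0.313 to 0.35 cpm in the deep libraries, and overlapped in shD3 #1. The 4 blood markers stayed under 1 cpm, with separate ranges in shD3 #1, siD3 #3 and the deep libraries. The part of these markers in the results was not tested. siD3 #3 replicate 3 stood apart from the other siD3 #3 libraries (chi-square per degree of freedom of 26.3 and 29.9, against 3.40 for the other pair). At lower values so did replicate 3 of deep shD3 #1 (15 and 11.8, against 4.92) and of shD3 #1 (5.69 and 8.05, against 1.73). Calls that changed without each of these libraries are given below.

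The median member was expressed above the median of all genes tested. Per kilobase of exon, averaged over the 8 control libraries of the first table, the median member had 5.09 cpm per kb against 2.23 cpm per kb for all genes tested. *TRMT10C*, a methyltransferase subunit of mitochondrial RNase P, was highest (20.6 ± 1.72 cpm per kb, SD, n = 8), followed by *NSUN2*, a cytosine methyltransferase (18 ± 1.24). The ranges of these genes overlapped (18.8 to 23.2 and 17 to 20.6). *FTSJ1* (14 ± 1.64), *PUS7* (12.7 ± 0.944) and *TRUB1* (11.9 ± 1.37) came next and were not separated beyond their spread. The lowest were *TRDMT1* (0.489 ± 0.0351), *PUS10* (0.693 ± 0.080) and *ADAT3* (0.777 ± 0.172). Exon length counts every annotated exon, which lowers the value of genes with long, rarely used exons.

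Calls required both an edgeR quasi-likelihood adjusted p (Benjamini-Hochberg) under 0.05 and a log2 fold change of 0.585 (1.5-fold) or more in either direction. All 59 members passed the filter on low counts in all 4 comparisons. In siD3 #3, 9 members were lower and 0 higher, against 9.42% and 12.5% of all 17032 genes tested. The 9 were 15.3% of the members, and 5 of them belong to the 10 wobble uridine genes. In shD3 #1, *PUS3* was higher and *TRMT1L* and *CDK5RAP1* were lower, against 14.5% of all genes higher and 14.6% lower. In shD3 #4 no member was called by edgeR or by DESeq2, against 8.00% higher and 4.49% lower among all genes. The unadjusted p was under 0.05 there for 30 members, and for 7928 of the 16493 genes tested. In the deep shD3 #1 libraries *CTU1* was higher and *TRMT10B*, *ELP5* and *TRMT1L* were lower, against 15.0% and 14.1%. Members called past both thresholds were thus less frequent than among all genes in both directions in 3 of the 4 comparisons, and 44 of the 59 (74.6%) stayed within 0.585 of 0 in all 4, against 48.2% of the genes tested in all 4.

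With the adjusted p alone, shD3 #1 had 20 members above control and 11 below (28.6% and 27.8% of all genes), shD3 #4 had 1 above and 24 below (20.0% and 20.8%), siD3 #3 had 0 above and 20 below (16.6% and 16.4%), and deep shD3 #1 had 11 above and 23 below (31.1% and 31.5%). The 0 stands beside 27 members with an unadjusted p under 0.05 in siD3 #3, where 7546 of the 17032 genes tested had such a p. In what follows, "rose" and "fell" are used of members past this adjusted p, and "called" of those past both thresholds. The median log2 fold change of the members was -0.02 in shD3 #1, -0.18 in shD3 #4, -0.27 in siD3 #3 and -0.08 in deep shD3 #1, where the medians of all genes lay between -0.02 and 0.03. Negative values were found for 31, 47, 50 and 33 of the 59. The ranges of knockdown and control libraries were separate for 38, 32, 42 and 38 members, beside 62.0%, 49.4%, 60.0% and 67.1% of all genes. Of these members the knockdown was below control for 17, 30, 39 and 25. As cpm are shares of each library, less of an mRNA per cell cannot be told from more of other RNAs.

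**Figure D1:**
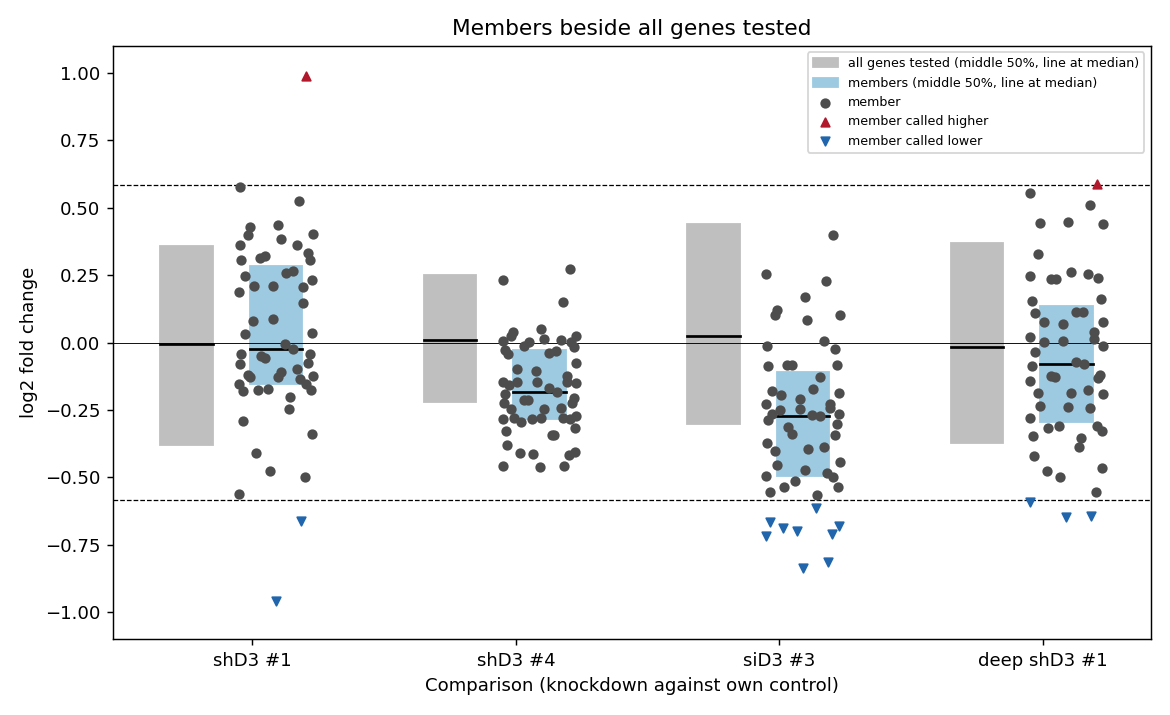
Log2 fold change of each of the 59 members (points) in the 4 comparisons, beside the middle 50% (boxes) and median (line) of all genes tested and of the members; dashed lines mark 0.585 in either direction and triangles mark called members. The member medians lie at -0.02, -0.18, -0.27 and -0.08, and the member boxes of shD3 #4 and siD3 #3 lie below 0.

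**Figure D2:**
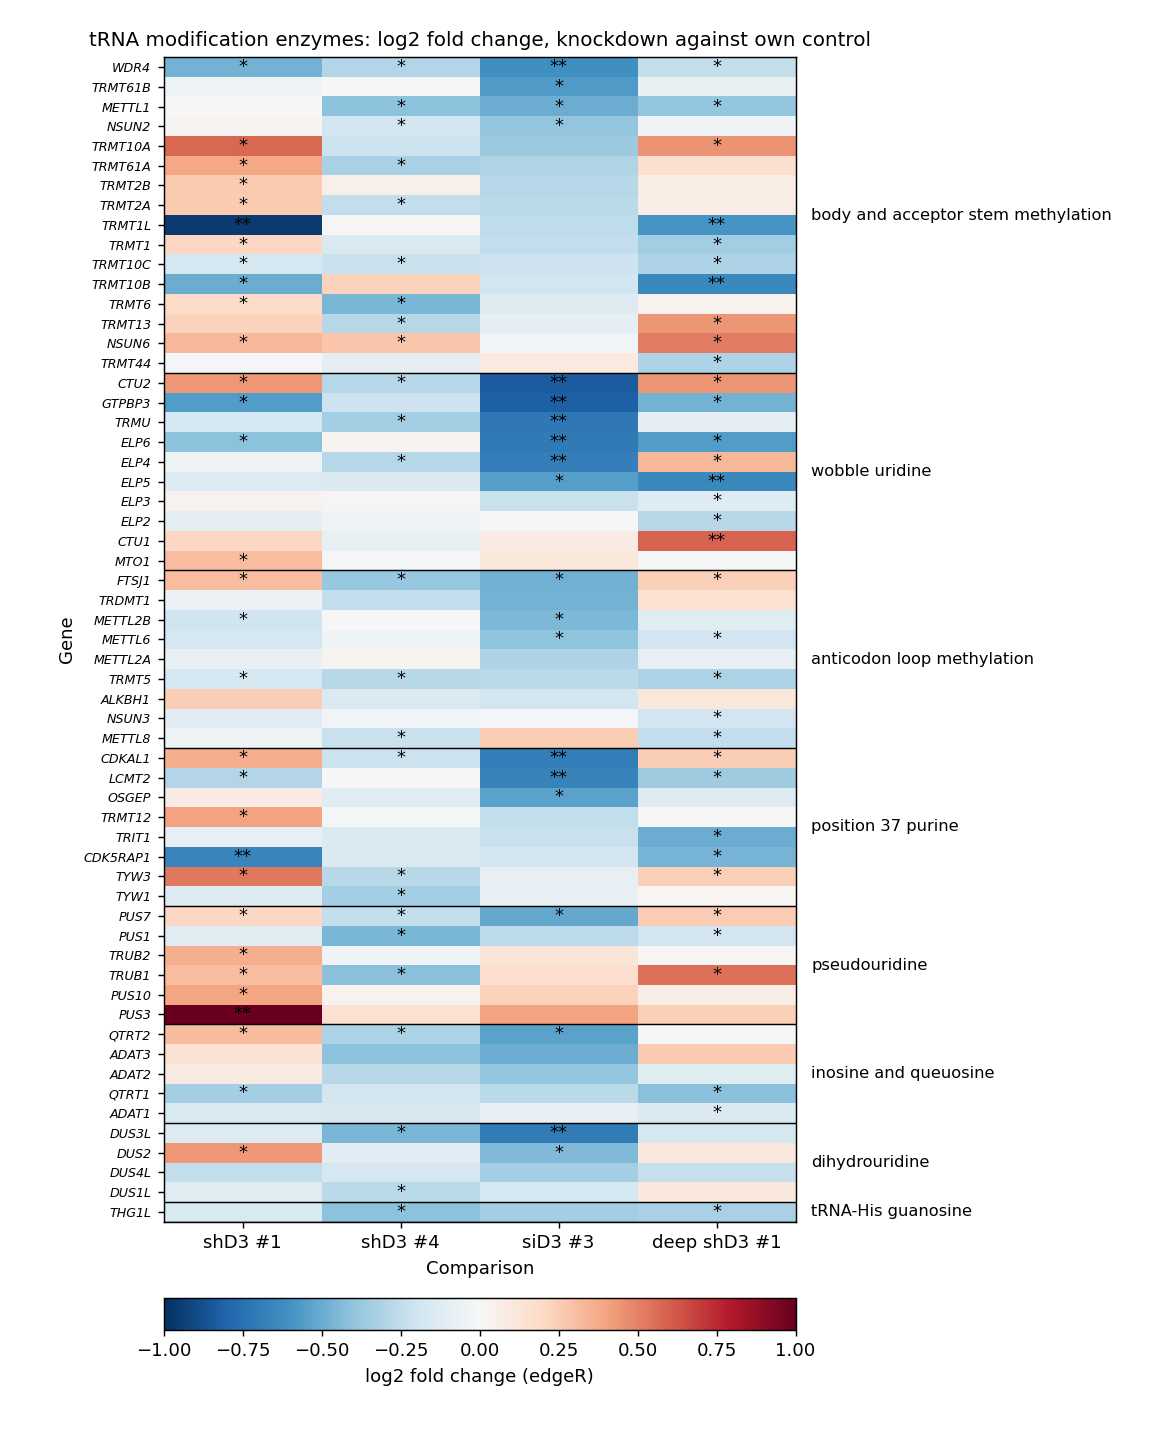
Log2 fold change of each member against its own control, grouped by the modification it serves and ordered within a group by siD3 #3; position 37 is the purine 3′ of the anticodon. 1 asterisk marks an adjusted p under 0.05 and 2 mark members also past 0.585 in size, of which there are 3, 0, 9 and 4 in the 4 comparisons.

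The wobble uridine genes held most of the members called in siD3 #3. In the cytosol the Elongator complex (*ELP2* to *ELP6* here) adds a carboxymethyl-type group to the wobble uridine, and the CTU1–CTU2 thiolase replaces an oxygen with sulphur. In mitochondria GTPBP3 and MTO1 add a taurine-containing group, and TRMU adds the sulphur. *CTU2*, *GTPBP3*, *TRMU*, *ELP6* and *ELP4* were called lower in siD3 #3, *ELP5* fell by less than the fold threshold, and *ELP2*, *ELP3*, *CTU1* and *MTO1* did not pass the test. The group's median was -0.62, against 0.03 for all genes.

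Promoters are shown for the 4 wobble uridine genes with the lowest values in siD3 #3 because they were called together. Each window is 300 bases long, most of it upstream of the RefSeq start (GRCh38.p14, read 5′ to 3′ on the gene's strand), at chr16:88706253-88706552, plus strand, for *CTU2*, chr19:17334732-17335031, plus strand, for *GTPBP3*, chr22:46335464-46335763, plus strand, for *TRMU*, and chr3:47513663-47513962, minus strand, for *ELP6*. Capitals mark matches on either strand to the GC box GGGCGG, the CCAAT box CCAAT, the E box CACGTG, the ETS core CCGGAAG or the cAMP response element TGACGTCA.
CTU2: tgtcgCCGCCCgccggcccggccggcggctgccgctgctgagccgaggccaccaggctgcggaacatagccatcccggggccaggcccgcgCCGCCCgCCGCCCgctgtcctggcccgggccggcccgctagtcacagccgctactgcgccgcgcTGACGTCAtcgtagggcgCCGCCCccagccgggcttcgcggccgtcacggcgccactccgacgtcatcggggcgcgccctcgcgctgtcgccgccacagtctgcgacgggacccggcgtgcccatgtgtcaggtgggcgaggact
GTPBP3: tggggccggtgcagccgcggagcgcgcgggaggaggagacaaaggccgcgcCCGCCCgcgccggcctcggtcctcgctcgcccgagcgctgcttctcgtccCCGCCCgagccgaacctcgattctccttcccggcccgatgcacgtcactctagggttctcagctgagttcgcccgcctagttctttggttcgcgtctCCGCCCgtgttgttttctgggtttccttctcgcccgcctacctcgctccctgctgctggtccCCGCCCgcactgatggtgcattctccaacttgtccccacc
TRMU: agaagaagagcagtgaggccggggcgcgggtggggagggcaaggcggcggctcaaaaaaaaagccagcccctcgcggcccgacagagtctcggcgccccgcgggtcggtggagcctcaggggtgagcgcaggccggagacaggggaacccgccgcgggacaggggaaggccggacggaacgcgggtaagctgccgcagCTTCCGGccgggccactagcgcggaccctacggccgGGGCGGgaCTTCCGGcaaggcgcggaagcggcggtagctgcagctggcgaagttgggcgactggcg
ELP6: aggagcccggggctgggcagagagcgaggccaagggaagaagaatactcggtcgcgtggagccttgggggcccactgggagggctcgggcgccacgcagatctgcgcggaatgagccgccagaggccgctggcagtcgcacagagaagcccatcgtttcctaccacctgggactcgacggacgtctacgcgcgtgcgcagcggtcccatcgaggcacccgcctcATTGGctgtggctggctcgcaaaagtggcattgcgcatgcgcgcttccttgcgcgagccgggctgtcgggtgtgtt
No searched motif was present in all 4 windows, and the GC box was in 3 of them. *CTU2* had 4 GC boxes and 1 cAMP response element, *GTPBP3* 4 GC boxes, *TRMU* 1 GC box and 2 ETS cores, and *ELP6* 1 CCAAT box. RefSeq promoters were matched for 50 of the 59 members, all but *TRMT2A*, *TRMT12*, *NSUN2*, *METTL1*, *ELP3*, *PUS1*, *TYW3*, *TRIT1* and *MTO1*. Of the 50, 60.0% held a GC box, 28.0% a CCAAT box, 8.0% an E box, 30.0% an ETS core and 10.0% a cAMP response element. The shares among all 27305 promoters of the same length were 44.6%, 35.7%, 7.4%, 10.7% and 2.0%, and the median GC content was 60.0% for members and 58.3% for all. No motif contains the letters of another, and a match is only a match of letters.

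*CTU2* had 13.8 and 14.3 cpm in the siControl libraries and 8.07, 7.54 and 8.07 cpm in siD3 #3. The groups were well apart, at a log2 fold change of -0.83 (SE 0.13, edgeR adjusted p = 0.00231). It moved the other way in shD3 #1, with 10.9, 11.5 and 12.0 cpm in sh1Control and 15.9, 15.8 and 14.7 cpm in the knockdown (log2 fold change 0.44, SE 0.09, edgeR adjusted p = 0.000820). In shD3 #4 it fell by 0.28 on the log2 scale (edgeR adjusted p = 0.0340), from 12.4, 11.1 and 9.68 to 9.13, 8.72 and 9.35 cpm. The deep libraries repeated the direction of shD3 #1, with 8.93, 9.62 and 8.90 cpm in control and 12.8, 11.6 and 12.8 cpm in knockdown (0.44, edgeR adjusted p = 0.000221). *CTU2* shares 10.0% of its exon length with genes on the opposite strand. *CTU1*, which codes the partner of CTU2, had 11.1 and 10.7 cpm in siControl and 10.6, 11.9 and 12.2 cpm in siD3 #3, so these groups overlapped. In the deep libraries *CTU1* had 6.44, 6.49 and 7.67 cpm in control and 11.5, 10.2 and 9.36 cpm in knockdown. That was a log2 fold change of 0.59 (edgeR adjusted p = 0.000172), just past the threshold, and it dropped to 0.505 without deep shD3 #1 replicate 1 and to 0.54 and 0.55 without deep sh1Control replicates 1 and 2. With no filter beyond 1 count or with at least 10 counts in every library it was 0.56 and 0.58, also under the threshold.

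*GTPBP3* had 14.1 and 14.1 cpm in siControl against 9.44, 7.65 and 6.92 cpm in siD3 #3 (log2 fold change -0.81, SE 0.16, edgeR adjusted p = 0.00738). Its level was 14.4, 12.8 and 15.6 cpm in sh1Control and 8.70, 9.53 and 11.2 cpm in shD3 #1 (-0.56, edgeR adjusted p = 0.000587), again without overlap. It also fell in the deep libraries, from 15.5, 16.0 and 14.1 to 12.1, 11.4 and 9.45 cpm (-0.47, edgeR adjusted p = 0.000392). In shD3 #4 the value was -0.21 and the groups overlapped (edgeR adjusted p = 0.114). *MTO1* gave 0.10 in siD3 #3, -0.01 in shD3 #4 and 0.01 in the deep libraries, and rose in shD3 #1 (0.31, edgeR adjusted p = 0.00457). *TRMU* had 26.6 and 24.7 cpm in siControl and 15.6, 14.5 and 16.8 cpm in siD3 #3 (log2 fold change -0.72, SE 0.11, edgeR adjusted p = 0.00263). It fell by 0.34 in shD3 #4 (edgeR adjusted p = 0.00158) and its values in shD3 #1 and the deep libraries, -0.17 and -0.09, did not pass.

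*ELP6*, one of 3 subunits of the Elongator ring, had 20.5 and 21.8 cpm in siControl and 13.3, 12.1 and 13.4 cpm in siD3 #3 (log2 fold change -0.71, SE 0.11, edgeR adjusted p = 0.00286). It also fell in shD3 #1, from 21.6, 20.5 and 19.1 to 15.9, 15.3 and 14.7 cpm (-0.41, edgeR adjusted p = 0.000696), and in the deep libraries, from 14.4, 14 and 14.1 to 8.44, 9.26 and 11.1 cpm (-0.55, edgeR adjusted p = 9.16e-05). In shD3 #4 its value was 0.02. *ELP5*, of the same ring, had 21.2, 19.1 and 21.6 cpm in the deep controls and 12.9, 12.6 and 14.1 cpm in the deep knockdown (-0.64, SE 0.07, edgeR adjusted p = 2.25e-06), and fell by 0.55 in siD3 #3 (edgeR adjusted p = 0.0101). In the first shD3 #1 libraries its value was -0.13, with overlap. *ELP4*, the remaining ring subunit, had 24.2 and 29.7 cpm in siControl and 16.2, 14 and 20.0 cpm in siD3 #3 (-0.68, SE 0.17, edgeR adjusted p = 0.0172). That call was lost without siControl replicate 2 (edgeR adjusted p = 0.127) and without siD3 #3 replicate 1 or 2 (0.0528 and 0.0554), and *ELP4* fell in shD3 #4 (-0.28) and rose in the deep libraries (0.33, edgeR adjusted p = 0.000433). On the opposite strand, *ELP4* and *ELP5* share 19.6% and 18.2% of their exon length with other genes, and the strand setting of the counts is not given in the sources used here. *ELP3*, the catalytic subunit, and *ELP2* passed in none of the first comparisons and fell in the deep libraries (-0.13 and -0.28).

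**Figure D3:**
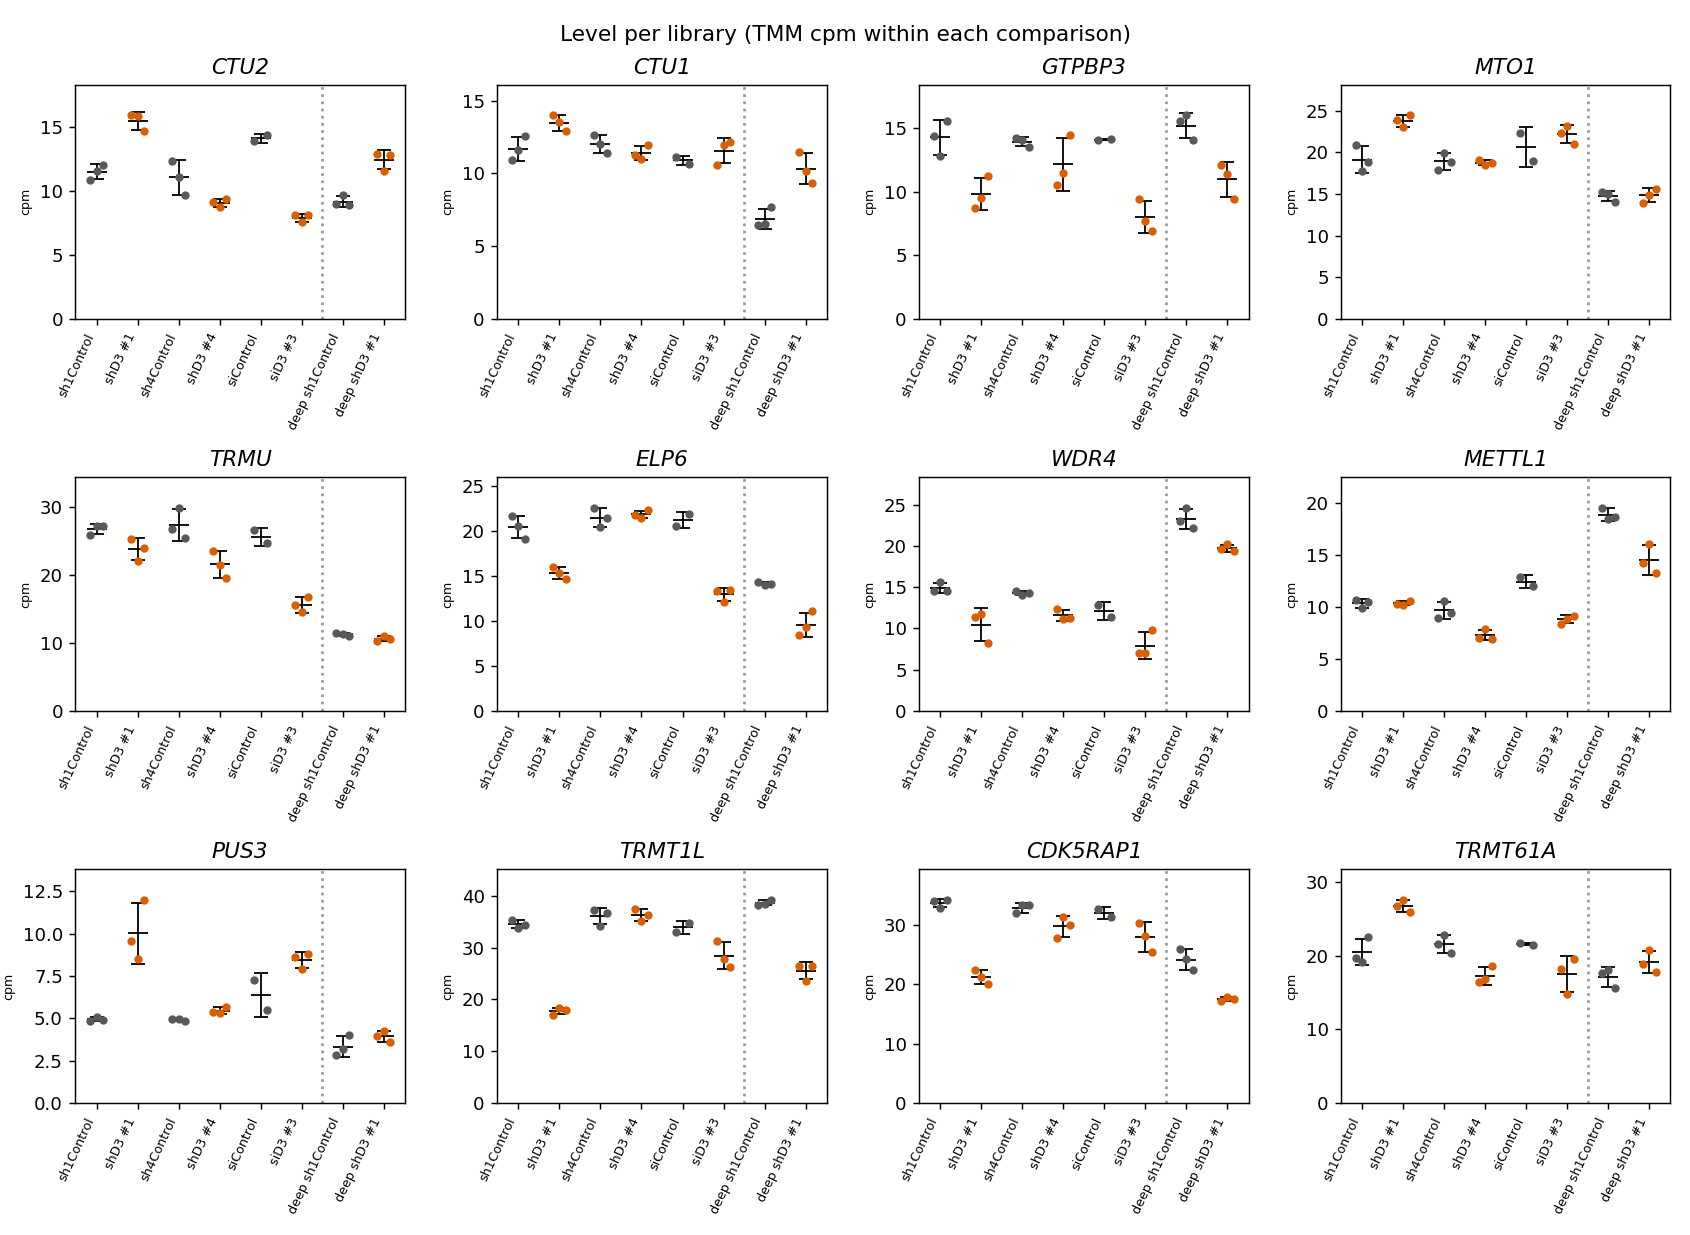
Level in cpm of 12 members in every library, with controls in grey, knockdowns in orange, and black bars for the mean and SD of each group; the dotted line separates the deep libraries, whose levels come from a table of their own. CTU2, GTPBP3, TRMU and ELP6 lie below siControl in all 3 siD3 #3 libraries, PUS3 in shD3 #1 lies at 8.52 to 12.0 cpm above 4.88 to 5.10 cpm, and TRMT1L in shD3 #1 at 17.1 to 18.3 cpm below 33.8 to 35.4 cpm.

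The body and acceptor stem methylation genes (16 members) included 1 called member in siD3 #3, 1 in shD3 #1 and 2 in deep shD3 #1, all lower. These were 6.25%, 6.25% and 12.5% of the group, against 9.42%, 14.6% and 14.1% of all genes lower. In shD3 #4, 0 were called. *TRMT1L*, a paralogue of the guanosine dimethyltransferase gene *TRMT1*, had the largest loss of any member. It had 35.4, 33.8 and 34.4 cpm in sh1Control and 17.1, 18.3 and 17.9 cpm in shD3 #1 (log2 fold change -0.96, SE 0.07, edgeR adjusted p = 1.50e-08). In the deep libraries it had 38.3, 38.4 and 39.2 cpm in control and 26.5, 23.6 and 26.5 cpm in knockdown (-0.59, edgeR adjusted p = 4.53e-07), a call that ended at -0.58 without deep sh1Control replicate 3 and at -0.54 without deep shD3 #1 replicate 2, and at -0.58 with DESeq2 or its size factors. In shD3 #4 it was level, at 0.01, with 37.3, 34.2 and 36.7 cpm in control and 37.4, 35.2 and 36.3 cpm in knockdown. In siD3 #3 its value of -0.25 did not pass (edgeR adjusted p = 0.114). *TRMT1* itself rose by 0.21 in shD3 #1 (edgeR adjusted p = 0.0443) and fell by 0.35 in the deep libraries (edgeR adjusted p = 0.000708). The rise in shD3 #1 did not pass with DESeq2 (adjusted p = 0.104), with either other count filter, in the joint fit or in 4 of the 6 fits that left out a library (highest edgeR adjusted p 0.240).

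Members of the TRMT10 family, which methylate a purine between the acceptor and D stems, went different ways. *TRMT10B* had 17.3, 16.6 and 16.4 cpm in the deep controls and 10.1, 11.1 and 10.9 cpm in the deep knockdown (log2 fold change -0.65, SE 0.07, edgeR adjusted p = 1.60e-06), and fell by 0.50 in the first shD3 #1 libraries (edgeR adjusted p = 0.0124). *TRMT10A* had 8.67, 7.89 and 6.55 cpm in sh1Control and 9.17, 11.9 and 13.8 cpm in shD3 #1 (0.58, SE 0.15, edgeR adjusted p = 0.00312), just below the fold threshold. It passed that threshold with DESeq2 (0.59) and rose by 0.45 in the deep libraries (edgeR adjusted p = 0.00618). *TRMT10C* fell by 0.18, 0.22 and 0.31 in shD3 #1, shD3 #4 and deep shD3 #1. *TRMT10B* shares 21.0% of its exon length with genes on the opposite strand.

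*WDR4* and *METTL1* code the subunits of the guanosine-7 methyltransferase. *WDR4* was the one member that fell in all 3 knockdowns (1.69% of members, against 6.14% of all genes tested in the 3). It had 14.5, 15.7 and 14.6 cpm in sh1Control and 11.4, 11.8 and 8.25 cpm in shD3 #1 (log2 fold change -0.47, edgeR adjusted p = 0.00250), and 14.5, 14 and 14.3 cpm in sh4Control and 12.4, 11.2 and 11.2 cpm in shD3 #4 (-0.29, edgeR adjusted p = 0.0101, and 0.0652 in the joint fit of 17 libraries). In siD3 #3 it had 7.03, 6.97 and 9.76 cpm against 12.9 and 11.4 cpm (-0.61, SE 0.19, edgeR adjusted p = 0.0377), with no overlap. This call was lost without any 1 of 4 libraries (siControl replicate 1 or 2, siD3 #3 replicate 1 or 2), at edgeR adjusted p of 0.192, 0.0913, 0.120 and 0.121, and with at least 10 counts in every library (-0.57, edgeR adjusted p = 0.0548). *WDR4* also fell in the deep libraries (-0.24, edgeR adjusted p = 0.00346). *METTL1* fell in shD3 #4 (-0.41), siD3 #3 (-0.50) and the deep libraries (-0.39), and had 10.3, 10.2 and 10.6 cpm in shD3 #1 against 10.7, 9.86 and 10.5 cpm in sh1Control.

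*TRMT6* and *TRMT61A* code the subunits of the cytosolic adenosine methyltransferase of the T loop. *TRMT61A* rose in shD3 #1, from 19.8, 19.2 and 22.6 to 26.7, 27.6 and 26.0 cpm (0.39, edgeR adjusted p = 0.000702), and fell in shD3 #4, from 21.6, 22.9 and 20.4 to 16.4, 16.8 and 18.6 cpm (-0.33, edgeR adjusted p = 0.00224). *TRMT6* did the same, at 0.19 and -0.46 (edgeR adjusted p = 0.0200 and 2.25e-05). Neither passed in siD3 #3 (-0.13 and -0.30) or in the deep libraries (0.04 and 0.16). *NSUN6*, a cytosine methyltransferase of the acceptor end, rose in shD3 #1 by 0.33 (edgeR adjusted p = 0.0124). In shD3 #4 it had 10.3, 12.1 and 13.3 cpm in control and 12.95, 15.8 and 14.6 cpm in knockdown, overlapping groups with a value of 0.27 (edgeR adjusted p = 0.0333) that did not pass with DESeq2 (adjusted p = 0.0850), in the joint fit (edgeR adjusted p = 0.0880) or without sh4Control replicate 1 or 2 or shD3 #4 replicate 2 or 3 (0.206, 0.0639, 0.164 and 0.0956). *NSUN6* had 16.0, 16.1 and 15.9 cpm in the deep controls and 24.0, 21.7 and 22.5 cpm in the deep knockdown (0.51, edgeR adjusted p = 4.42e-06), and -0.03 in siD3 #3. *TRMT61B*, of the mitochondrial adenosine methyltransferase, fell in siD3 #3 (-0.56, edgeR adjusted p = 0.0127) and shares 22.8% of its exon length with a gene on the opposite strand. The remaining members of the group, *TRMT2A*, *TRMT2B*, *TRMT13*, *TRMT44* and *NSUN2*, lay between -0.39 and 0.44.

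None of the 9 anticodon loop methylation genes was called in any comparison, where 4.49% to 15.0% of all genes were called in each direction. An unadjusted p under 0.05 was found for 3, 4, 6 and 6 of the 9. Among all genes tested it was found for 9989 of 16456, 7928 of 16493, 7546 of 17032 and 12311 of 18763. *FTSJ1*, a ribose methyltransferase, passed the adjusted p in all 4 comparisons. It rose in shD3 #1, from 37.5, 35.2 and 37.1 to 42.8, 46.1 and 47.8 cpm (0.31), and in the deep libraries (0.24). It fell in shD3 #4, from 40.8, 40.3 and 37.4 to 29.8, 31.6 and 29.7 cpm (-0.38), and in siD3 #3, from 46.1 and 45.3 to 30.1, 33.0 and 35.1 cpm (-0.48). No pair of groups overlapped. Among the genes of 3-methylcytidine formation, *METTL2B* and *METTL6* fell in siD3 #3 (-0.45 and -0.40), *METTL2A* gave -0.31 (edgeR adjusted p = 0.0519) and the mitochondrial *METTL8* gave 0.25 (edgeR adjusted p = 0.0688). *METTL8* fell in shD3 #4 and the deep libraries (-0.23 and -0.24), and *METTL2B* in shD3 #1 (-0.20). *METTL2A* and *METTL2B* are near-identical copies, so their counts are uncertain. *TRMT5*, a guanosine methyltransferase, fell by 0.18, 0.28 and 0.32 in shD3 #1, shD3 #4 and deep shD3 #1. The fall in shD3 #1 (edgeR adjusted p = 0.0463) did not pass with DESeq2 (adjusted p = 0.172). *TRDMT1* and *ALKBH1* passed in none of the 4 comparisons, and *NSUN3* fell only in the deep libraries (-0.19).

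Of the 8 genes that act on the purine 3′ of the anticodon, *CDKAL1* and *LCMT2* were called lower in siD3 #3 and *CDK5RAP1* in shD3 #1. These were 25% and 12.5% of the 8, against 9.42% and 14.6% of all genes lower. *CDKAL1* and *CDK5RAP1* code methylthiotransferases of cytosolic and mitochondrial tRNAs. *CDK5RAP1* had 34.0, 32.9 and 34.3 cpm in sh1Control and 22.4, 21.2 and 20.2 cpm in shD3 #1 (log2 fold change -0.66, SE 0.07, edgeR adjusted p = 9.14e-07). It fell by 0.46 in the deep libraries, from 25.9, 24.3 and 22.4 to 17.2, 17.9 and 17.6 cpm, and gave -0.15 and -0.19 in shD3 #4 and siD3 #3. *CDKAL1* had 21.0 and 22.5 cpm in siControl and 13.5, 12.4 and 14.6 cpm in siD3 #3 (-0.69, SE 0.12, edgeR adjusted p = 0.00405). It rose in shD3 #1 (0.36) and in the deep libraries (0.25) and fell in shD3 #4 (-0.21), all without overlap.

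*LCMT2*, *TYW1*, *TRMT12* and *TYW3* serve the wybutosine pathway of phenylalanine tRNA and did not move together. *LCMT2* had 14.3 and 12.4 cpm in siControl and 9.01, 8.79 and 7.47 cpm in siD3 #3 (-0.66, SE 0.15, edgeR adjusted p = 0.0117), a call lost without siControl replicate 1 (edgeR adjusted p = 0.0950). It also fell in shD3 #1 (-0.29) and the deep libraries (-0.35). *TYW3* rose in shD3 #1, from 22.3, 21.4 and 22.4 to 31.1, 28.2 and 36.9 cpm (0.52, edgeR adjusted p = 0.000110), and in the deep libraries (0.23), and fell in shD3 #4 (-0.28). *TRMT12* rose in shD3 #1 (0.40) and *TYW1* fell in shD3 #4 (-0.34). *OSGEP*, the catalytic subunit of threonylcarbamoyl transfer, fell in siD3 #3 (-0.54, edgeR adjusted p = 0.00926). *TRIT1*, the isopentenyltransferase gene, fell by 0.50 in the deep libraries (edgeR adjusted p = 3.05e-05) and gave -0.08 in the first shD3 #1 libraries.

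The 6 pseudouridine synthase genes had a positive median in shD3 #1 (0.33), in siD3 #3 (0.14) and in the deep libraries (0.15), and a negative one in shD3 #4 (-0.14). In siD3 #3, 0 of the 6 rose and 1 fell (*PUS7*). Among related genes outside the members, *PUSL1*, *PUS7L* and *RPUSD1* to *RPUSD4* gave -0.67 to -0.25 in siD3 #3. *PUS3*, which acts in the anticodon arm, was the largest gain of any member. It had 4.88, 5.10 and 4.89 cpm in sh1Control and 9.58, 8.52 and 12.0 cpm in shD3 #1, a 1.98-fold rise (log2 0.99, SE 0.14, edgeR adjusted p = 1.75e-05). In siD3 #3 it had 8.63, 7.94 and 8.81 cpm against 7.30 and 5.47 cpm (0.40), which did not pass (edgeR adjusted p = 0.116). In the deep libraries it gave 0.24 with overlapping groups (3.94, 4.28 and 3.63 against 2.82, 3.18 and 4.01 cpm, edgeR adjusted p = 0.177). *TRUB1* rose in shD3 #1 (0.31) and in the deep libraries, from 32.9, 33.8 and 34.9 to 47.6, 54.3 and 47.2 cpm (0.55, edgeR adjusted p = 1.62e-06), and fell in shD3 #4 (-0.42). *PUS7* rose in shD3 #1 and the deep libraries (0.21 and 0.25) and fell in shD3 #4 and siD3 #3 (-0.24 and -0.51). *TRUB2* and *PUS10* rose in shD3 #1 (0.36 and 0.40), and *PUS1* fell in shD3 #4 and the deep libraries (-0.46 and -0.19).

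Of the 4 dihydrouridine synthase genes, *DUS3L* was called lower in siD3 #3 (25% of the 4, against 9.42% of all genes lower). *DUS3L* had 12.3, 11.1 and 13.2 cpm there against 20.6 and 18.9 cpm in siControl (log2 fold change -0.70, SE 0.12, edgeR adjusted p = 0.00472). It fell in shD3 #4 as well, from 18.0, 21.7 and 17.8 to 12.9, 13.4 and 15.7 cpm (-0.46, edgeR adjusted p = 0.000371). *DUS2* fell in siD3 #3 (-0.44) and rose in shD3 #1 (0.43), and *DUS1L* fell in shD3 #4 (-0.27). *DUS4L* gave -0.34 to -0.17 and passed in no comparison. It shares 27.2% of its exon length with a read-through gene on its own strand.

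No inosine or queuosine gene was called, where 4.49% to 15.0% of all genes were called in each direction. An unadjusted p under 0.05 was found for 3, 4, 1 and 2 of the 5. The counts over all genes are those given for the anticodon loop genes. *QTRT2*, which codes the partner of the queuine transferase QTRT1, rose in shD3 #1 (0.32, edgeR adjusted p = 0.000755) and fell in shD3 #4 and siD3 #3 (-0.32 and -0.54). In the deep libraries its value was -0.01, with overlap. *QTRT1* fell in shD3 #1 and the deep libraries (-0.34 and -0.42). The deaminase genes *ADAT2* and *ADAT3* passed in no comparison. *ADAT3* was low, at 1.40 ± 0.0217 cpm (SD, n = 2) in siControl, shares 34.8% of its exon length with *SCAMP4*, and had the widest errors (SE 0.36 in siD3 #3). *ADAT1* fell in the deep libraries (-0.14). *THG1L*, which adds a guanosine to histidine tRNA, fell in shD3 #4 and the deep libraries (-0.41 and -0.33).

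The 9 members that act only on mitochondrial tRNAs had medians of -0.11, -0.15, -0.21 and -0.19 in shD3 #1, shD3 #4, siD3 #3 and deep shD3 #1. The other 50 had 0.03, -0.19, -0.29 and -0.03. Of the 9, 1 was called lower in shD3 #1 (*CDK5RAP1*, 11.1%, against 14.6% of all genes lower). In siD3 #3, 2 were called lower (*GTPBP3* and *TRMU*, 22.2%, against 9.42%). In shD3 #4 and the deep libraries 0 were called, against 4.49% and 14.1% of all genes lower and 8.00% and 15.0% higher. An unadjusted p under 0.05 was found there for 4 and 5 of the 9, beside 7928 of 16493 and 12311 of 18763 genes tested.

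Ratios of partner or paralogous genes did not overlap between knockdown and control in some of the comparisons. The log2 ratio of *CTU2* to *CTU1* went from 0.37 ± 0.08 (SD, n = 2) in siControl to -0.55 ± 0.14 (n = 3) in siD3 #3, a difference of -0.92 with no overlap. It differed by 0.22 in shD3 #1 and -0.20 in shD3 #4, also without overlap, and overlapped in the deep libraries. *GTPBP3* to *MTO1* dropped by 0.86 in shD3 #1, 0.94 in siD3 #3 and 0.48 in the deep libraries, each without overlap, and by 0.20 with overlap in shD3 #4. *QTRT2* to *QTRT1* was 0.67 higher in shD3 #1 and 0.40 higher in the deep libraries. *WDR4* to *METTL1* was 0.53 lower in shD3 #1 and overlapped in the other 3 comparisons. *TRMT6* to *TRMT61A* and *METTL2B* to *METTL2A* overlapped in all 4. *ADAT3* to *ADAT2* was 0.38 higher in the deep libraries without overlap, and overlapped in the other 3 comparisons. *TRUB2* to *TRUB1* differed by 0.38 in shD3 #4 and by -0.54 in the deep libraries, without overlap, and overlapped in shD3 #1 and siD3 #3. Among single genes 49.4% to 67.1% had no overlap, and the share for ratios of other gene pairs was not computed. These ratios are descriptions with no test, since 3 against 3 libraries cannot go below p = 0.10 in an exact two-sided permutation test.

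**Figure D4:**
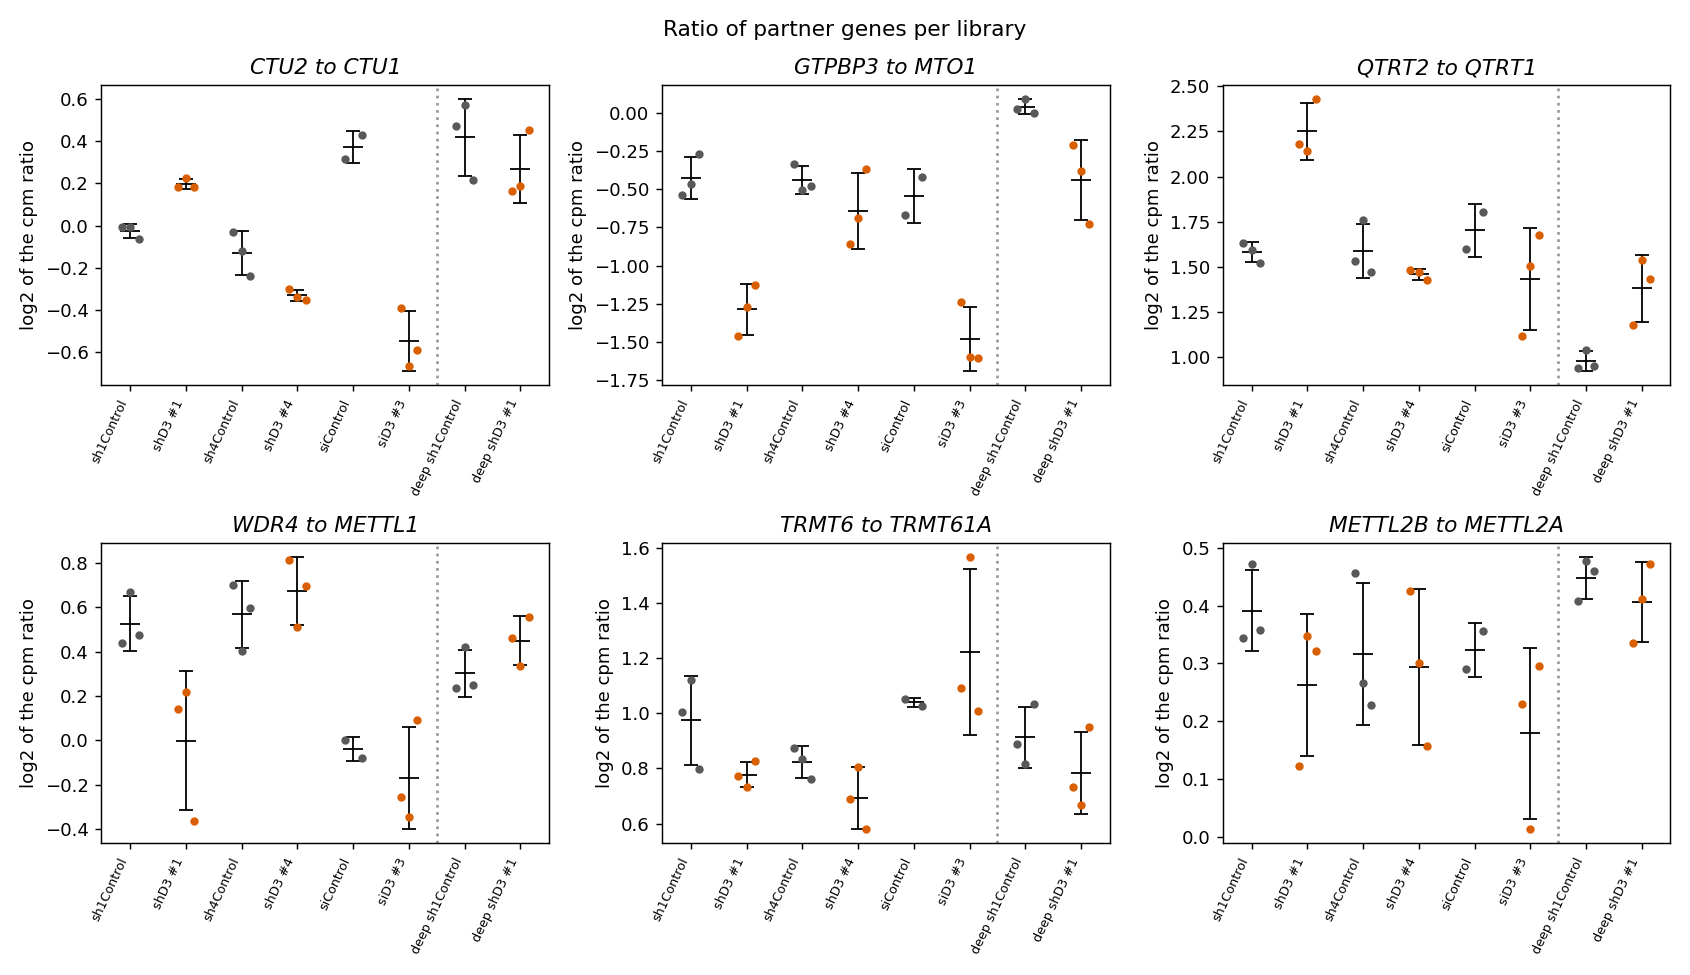
Log2 ratio of the cpm of 6 pairs of partner or paralogous genes in every library (controls grey, knockdowns orange), with the mean and SD of each group in black; deep libraries lie right of the dotted line. The ratio of CTU2 to CTU1 lies at -0.66 to -0.39 in siD3 #3 and at 0.32 to 0.43 in siControl.

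The knockdowns differed from each other at several members. Among the 59, 11 passed the adjusted p in opposite directions in different knockdowns (18.6%, against 14.1% of the 15656 genes tested in all 3). Of these, 10 rose in shD3 #1 and fell in shD3 #4 (16.9%, against 5.93% of all genes) and 0 did the reverse (5.72% of all genes). *TRMT61A*, *TRUB1*, *QTRT2* and *FTSJ1* passed in both of these knockdowns without any 1 library and under each other filter, scaling or model, whereas *TRMT2A*, *TRMT6*, *CTU2*, *CDKAL1*, *TYW3* and *PUS7* each failed to pass in at least 1 fit that left out a library. In the deep shD3 #1 libraries *TRUB1* and *FTSJ1* rose again, and *TRMT61A* (0.16) and *QTRT2* (-0.01) did not pass. Differences between knockdowns were tested in 1 edgeR model of the 17 first libraries. The effect was higher in shD3 #1 than in shD3 #4 for 9 members (*PUS3*, *TYW3*, *TRMT10A*, *TRUB1*, *CTU2*, *TRMT61A*, *FTSJ1*, *TRMT6* and *QTRT2*, by 0.63 to 0.84 on the log2 scale) and lower for 2 (*TRMT1L*, -0.97, and *TRMT10B*, -0.73), against 12.1% and 13.8% of all genes. The median difference was 0.22 over the members and -0.04 over all 18672 genes tested. The effect of siD3 #3 was lower than the mean of the shRNA effects for *CTU2* (-0.90), *CDKAL1* (-0.75) and *DUS2* (-0.59) and higher for none, against 7.12% and 9.43% of all genes. The *QTRT2* call ended without sh4Control replicate 2. The *TRMT10B* call ended without sh1Control replicate 1, shD3 #1 replicate 2, sh4Control replicate 1 or shD3 #4 replicate 1, and the *DUS2* call without sh1Control replicate 2, shD3 #1 replicate 3 or sh4Control replicate 2, and with at least 10 counts in every library (-0.57). Without siD3 #3 replicate 3, 6 members were lower than the shRNA mean, as *ELP4*, *QTRT2* and *OSGEP* were then called too. *THUMPD3* was lost to different extents, the knockdowns differ in agent and in harvest day, and the part of these in the differences was not tested.

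**Figure D5:**
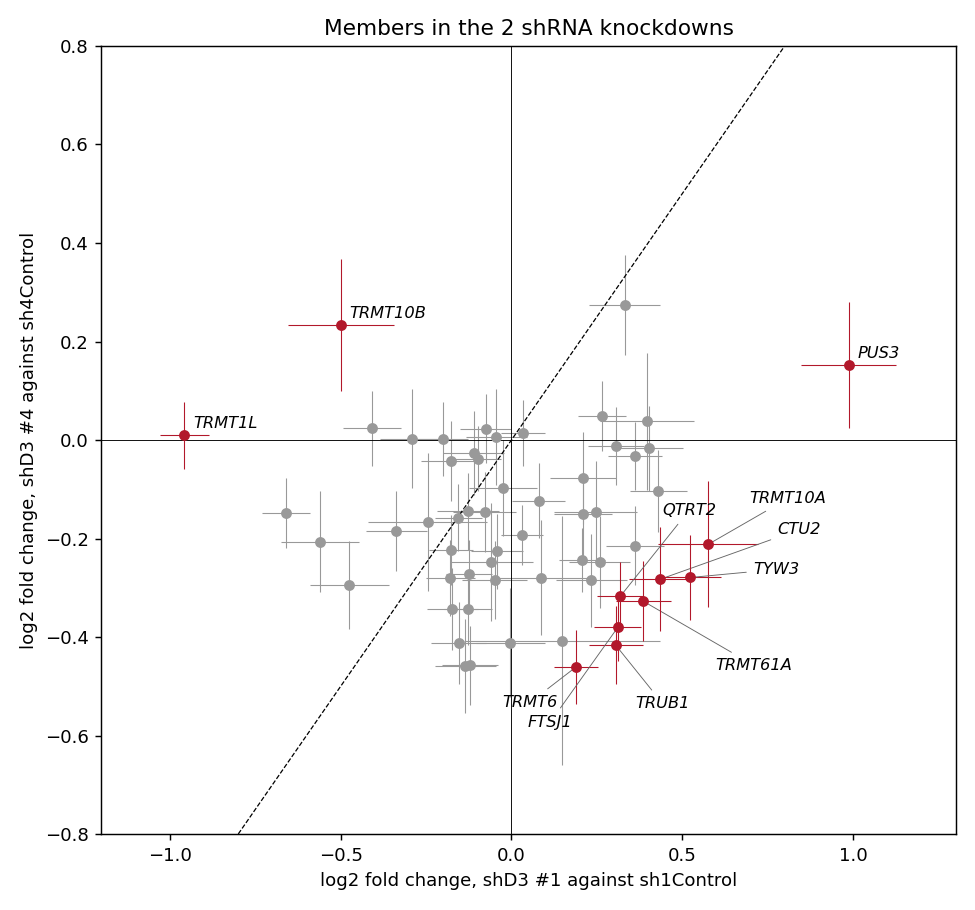
Log2 fold change of each member in shD3 #1 (x axis) and shD3 #4 (y axis), with standard errors; the dashed line marks equal values and red marks the 11 members whose difference was called. Of the 11, 8 lie right of 0 and below 0, PUS3 lies right of 0 and above it, and TRMT1L and TRMT10B lie left of 0.

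The deep libraries hold the same knockdown as the first shD3 #1 libraries, counted on another annotation, and the labels do not say whether the cultures were the same. Of the 31 members past the adjusted p in the first, 18 passed in the same direction in the deep libraries (58.1%, against 77.5% of the 8458 such genes), 12 did not pass (38.7% against 18.4%) and 1 passed in the opposite direction (*TRMT1*, 3.23% against 4.13%), whose first value is the unstable one given above. Of the 34 that passed in the deep libraries, 15 had not passed in the first (44.1%, against 28.2% of all such genes). *TRMT1L* was past both thresholds in each (1.69% of members, against 17.6% of the 13871 genes tested in both), and its deep value was under the fold threshold with DESeq2 (-0.58). Over the 59, 49 had the same sign (83.1%, against 79.5%).

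Of 31 further genes of the pathway, chosen as cofactors, scaffold subunits and related enzymes, 28 to 31 were tested in each comparison. In shD3 #1, *YRDC*, which makes the precursor of threonylcarbamoyladenosine, was higher (1.21) and so was *PUSL1*, a pseudouridine synthase gene (0.69). *URM1*, the sulphur carrier of the CTU1–CTU2 reaction, was lower (-0.75), as was *TRMO*, a methyltransferase gene (-0.75), so 2 of 30 tested were higher and 2 lower (6.67% each, against 14.5% and 14.6% of all genes). In shD3 #4, 1 of 31 was lower (*QNG1*, -0.62), or 3.23% against 4.49% of all genes, and 0 were higher against 8.00%. In siD3 #3, 3 of 30 were lower, *TPRKB* (-0.90) and *OSGEPL1* (-0.84) of the threonylcarbamoyl pathway and *RPUSD4* (-0.67), or 10.0% against 9.42% of all genes, and 0 were higher against 12.5%. In the deep libraries 2 of 28 were higher (*HSD17B10*, 1.13, and *PUSL1*, 0.71) and 2 lower (*TRMO*, -0.71, and *URM1*, -0.66), or 7.14% each against 15.0% and 14.1% of all genes.

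The calls in siD3 #3 rest on 2 control libraries, and none of the 9 passed when tested against the fold threshold itself (glmTreat, lowest adjusted p 0.0999 for *CTU2*). By that test *PUS3* and *TRMT1L* in shD3 #1 were the members still called.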

How the data were processed

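RNA of A549 cells was sequenced after rRNA depletion with a directional kit in 23 libraries. According to the study's methods and the submitters' processing notes, reads were trimmed (Trimmomatic 0.40) and counted per gene by STAR 2.7.10a on GRCh38.p14. The authors deposited raw counts, with no normalization. The first table (17 libraries) lists Ensembl identifiers, of which 61757 of 61806 matched GENCODE 44, and the deep table (6 libraries) lists RefSeq symbols. The strand setting is not given in the sources used here. Rows of the first table without a match kept their Ensembl identifier as the name.

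Counts were fitted per comparison with edgeR 4.0.16 in R 4.3.3 (filterByExpr, TMM, quasi-likelihood F test, Benjamini-Hochberg over all genes tested). Levels (cpm) are counts scaled to TMM library sizes within a comparison. Standard errors are the log2 fold change divided by the square root of F. Differences between knockdowns used 1 model of the 17 libraries. Totals of 9854294 to 59974740 counts set the precision, and low members such as *ADAT3* had the widest errors. Alternatives were DESeq2 1.42.0 and its size factors, other count filters, glmTreat, no mitochondrial genes, the replicate block, 1 joint fit and leaving out each library. Reading the adjusted p alone was added after seeing the data. Scripts were tested on simulated counts.

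The members and lists were chosen with earlier results of these data known. Members were named if called (adjusted p and fold together) with 1 sign in 2 or more of the 3 first knockdowns or with opposite signs in any 2 comparisons (0 members met either), among the 3 highest or 3 lowest called in a comparison, or in a complex or paralogous pair (24 members in all). Other members were named after their values were seen. Replicates are biological per the methods, and no pairing of cultures is stated.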

Additional observations from a re-analysis of the deposited data

Results flagged for a closer look

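The effect of knockdown differed between shD3 #1 and shD3 #4 at 11 members by edgeR's test of the difference (shD3 #1 minus shD3 #4, log2 scale). It was higher in shD3 #1 for *PUS3* (0.84), *TYW3* (0.80), *TRMT10A* (0.78), *TRUB1* (0.72), *CTU2* (0.71), *TRMT61A* (0.71), *FTSJ1* (0.69), *TRMT6* (0.65) and *QTRT2* (0.63). It was lower in shD3 #1 for *TRMT1L* (-0.97) and *TRMT10B* (-0.73), of which *TRMT1L* fell in shD3 #1 and had a value of 0.01 in shD3 #4. The adjusted p of these differences ran from 4.01e-07 for *TRMT1L* to 0.0255 for *TRMT10B*.

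The effect of siD3 #3 differed from the mean of the shRNA effects at 3 members, *CTU2* (-0.90), *CDKAL1* (-0.75) and *DUS2* (-0.59), all lower in siD3 #3 (edgeR adjusted p = 2.22e-05, 4.20e-05 and 0.000270). Both differences share libraries with the comparisons described above.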

How the results depend on the processing

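Across the alternatives, single genes stayed called or stayed uncalled in 5911 cases, lost the call in 43 and gained one in 43. No value called in either fit reversed its sign, and signs of values called in neither were not compared. Tested against the fold threshold, members lower fell to 1 in shD3 #1, 0 in siD3 #3 and 0 in deep shD3 #1, and members higher to 0 in deep shD3 #1. Of the further pathway genes, 1 was then higher and 0 lower in each of shD3 #1 and deep shD3 #1, 0 were lower in shD3 #4 and 1 was lower in siD3 #3. DESeq2 called 2 members higher in shD3 #1, and by the adjusted p alone 7 lower there and 0 higher in shD3 #4. In shD3 #1 *TRMT1*, *TRMT2A*, *TRMT5*, *TRMT6*, *TRMT10C*, *METTL2B*, *PUS10* and *LCMT2* passed with edgeR and not with DESeq2 (adjusted p 0.051 to 0.172). Deep shD3 #1 had 0 members higher with no filter beyond 1 count and 0 with at least 10 counts in every sample. With that latter filter 1 member was higher by the adjusted p alone in siD3 #3. The joint fit of 17 libraries gave, by the adjusted p alone, 0 members above control in shD3 #4, and 2 above and 31 below in siD3 #3. With no filter the median of all genes in siD3 #3 was 0.27 and that of members -0.30. The cause of these changes was not tested, except that testing against the fold is stricter by construction.

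Same-numbered libraries did not deviate together (correlations of -0.108 to 0.142), and not every library correlated best with its own number. The deviations are from means of only 2 or 3 libraries, and in siD3 #3 the correlations mirror each other (0.142 and -0.142). This check therefore cannot exclude that cultures were paired. A fit with the replicate block moved the member median in siD3 #3 to -0.324 and gave 2 members higher by the adjusted p alone there. *LCMT2* in siD3 #3 (-0.58) and *DUS2* in its difference from the shRNA mean (-0.58) then dropped under the fold threshold, *QTRT2* and *OSGEP* in siD3 #3 and *ELP4* and *QTRT2* in that difference passed it, and no other call changed.

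Leaving out 1 library gave 1 to 2 members higher and 2 to 4 lower in shD3 #1 (4 without sh1Control replicate 2), 0 to 1 lower in shD3 #4 (1 without sh4Control replicate 3) and 0 to 2 higher in deep shD3 #1. Without siD3 #3 replicate 3, *QTRT2* (-0.64, edgeR adjusted p = 0.000221) and *OSGEP* (-0.62, edgeR adjusted p = 0.000764) were also called lower in siD3 #3. Without deep shD3 #1 replicate 3, *ELP6* was also called lower (-0.68) and *TRUB1* higher (0.589) in the deep libraries. Without shD3 #1 replicate 3, *GTPBP3* was also called lower in shD3 #1 (-0.64). Medians ran from -0.035 to 0.016 in shD3 #1 (positive without sh1Control replicate 3) and from -0.336 to -0.249 in siD3 #3. By the adjusted p alone, 6 to 12 were lower in shD3 #1, 0 to 1 higher in shD3 #4, 0 to 2 higher in siD3 #3 (2 without siD3 #3 replicate 3) and 10 to 28 lower in siD3 #3, the low end without a siControl library. The further genes gave 0 to 2 higher and 0 to 1 lower in shD3 #4. Lower effects numbered 1 to 2 for shD3 #1 minus shD3 #4 and 2 to 6 for siD3 #3 minus the shRNA mean. A lone siControl library was assumed to vary like the other group. With 2 siControl libraries and a lowest total of 9854294 counts, small changes of low genes were not detectable.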
